A study of Mus musculus with 7 samples.

Results

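The RMER elements are rodent-specific long terminal repeats (LTRs), the flanking sequences of endogenous retroviruses that once copied themselves through an RNA. The members were the rows of the deposited repeat count table whose element name starts with RMER: 127098 loci with 54 names, of 3494995 LINE, SINE and LTR loci with 875 names. The data were RNA-Seq of whole fetal testes at embryonic day (E) 14.5, 1 pair of testes from 1 embryo per library. The groups were wild-type C57BL/6 embryos (n = 3) and Glis3 mutants (n = 4), homozygous for the zf5 allele, a deletion within the zinc finger region that removes function in all cells of the animal. The libraries were made from RNA depleted of ribosomal RNA without selection for poly(A), so that introns and unprocessed RNA were also read. The comparison asks whether transcripts from this group of LTRs differ between testes with and without GLIS3.

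An LTR carries the signals that start and end a retroviral transcript, and a solitary LTR left behind by recombination can still act as a promoter, a first exon or a polyadenylation site of a nearby gene. In germ cells of the fetal testis, LTR elements pass through a period of genome-wide DNA demethylation and are then silenced again, by small RNAs bound to PIWI proteins, by DNA methyltransferases with their cofactor DNMT3L, and by histone H3 lysine 9 methylation brought in by KRAB zinc finger proteins and TRIM28. GLIS3 is a Krüppel-like zinc finger transcription factor that binds a G-rich sequence.

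The repeat table held 3454317 to 4670830 uniquely mapped reads per library, of which 93337 to 127373 lay in RMER loci. Glis3 was at 7.63, 6.89 and 2.91 FPKM (fragments scaled to gene length and library) in wild-type replicates 1 to 3 and at 2.66 to 3.87 FPKM in the mutants (log2 fold change −0.69 ± 0.28 SE, limma adjusted p = 0.27). The FPKM covers the whole gene, including exons outside the deletion. The third of these wild-type libraries lay within the mutant range and is called here the library labelled wild-type replicate 3. In the headers of both tables its name and that of mutant replicate 1 stand together without a tab, and columns were assigned by the order of the names. Whether its label is right could not be settled, which bears on each wild-type mean and call given here. It also carried the lowest germ cell marker level of its group. The summed FPKM of 12 germ cell markers was 1397, 1026 and 605.7 in the wild-type libraries and 490.9 to 648.7 in the mutants. The mean log2 level of these markers, to which abundant genes add less, was 5.13, 4.71 and 4.03 in the wild-type libraries. It was 3.67 to 3.86 in the mutants, so that by this measure the library labelled wild-type replicate 3 was above each mutant. All 12 were lower in the mutant mean with a median log2 difference of −0.85, and 0 passed an adjusted p of 0.05 (9 had an unadjusted p under 0.05). In whole testes, fewer germ cells and less RNA per germ cell cannot be told apart. Results that rest on wild-type replicates 2 or 3 are given with and without them.

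The sequences below come from the parts of 4 RMER copies that lie in exons of non-coding RNAs. These copies passed the locus test described further on, 2 with lower and 2 with higher reads in the mutants. Where the part in the exon was longer than 300 bases, the first window of 300 bases with the most matches to the letters searched is shown. The ends of such a window need not be those of the exon or the copy. All 4 sequences are shown as RMER sequence that lies in an exon of an annotated RNA. The Platr14 copy lies on the strand opposite to its gene, so its sequence is the reverse complement of the RNA. The other copies lie on the strand of their gene. They were taken from the GENCODE M21 transcripts (GRCm38, the mm10 build) and written 5′ to 3′ on the strand of the repeat. Capitals mark the letters TATAAA and AATAAA on that strand, the core of a promoter TATA box and of a polyadenylation signal, and the letters TGGGGGG, searched on both strands as a short form of the G-rich GLIS site, were in none of the 4.
RMER19B in Platr14, chr2:104567944-104568096 (minus strand): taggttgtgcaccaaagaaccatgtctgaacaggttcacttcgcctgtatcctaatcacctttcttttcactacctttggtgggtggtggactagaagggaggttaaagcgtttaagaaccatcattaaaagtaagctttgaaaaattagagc
RMER19B in 2610037D02Rik, chr15:96193639-96193938 (minus strand): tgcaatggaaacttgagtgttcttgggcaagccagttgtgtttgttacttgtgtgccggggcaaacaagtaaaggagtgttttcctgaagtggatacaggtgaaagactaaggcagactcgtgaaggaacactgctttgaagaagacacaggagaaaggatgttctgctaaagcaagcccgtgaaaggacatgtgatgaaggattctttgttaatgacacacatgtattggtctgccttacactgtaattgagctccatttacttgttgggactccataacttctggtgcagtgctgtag
RMER19B in Gm26862, chr7:93103511-93103810 (plus strand): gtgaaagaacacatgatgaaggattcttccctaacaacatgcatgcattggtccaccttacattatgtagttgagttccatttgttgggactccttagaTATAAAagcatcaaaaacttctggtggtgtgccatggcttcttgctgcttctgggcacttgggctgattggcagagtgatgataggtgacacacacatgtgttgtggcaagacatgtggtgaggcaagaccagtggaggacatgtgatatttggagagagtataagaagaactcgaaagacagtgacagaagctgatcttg
RMER5 in CT025731.4, chr17:74055785-74056084 (minus strand): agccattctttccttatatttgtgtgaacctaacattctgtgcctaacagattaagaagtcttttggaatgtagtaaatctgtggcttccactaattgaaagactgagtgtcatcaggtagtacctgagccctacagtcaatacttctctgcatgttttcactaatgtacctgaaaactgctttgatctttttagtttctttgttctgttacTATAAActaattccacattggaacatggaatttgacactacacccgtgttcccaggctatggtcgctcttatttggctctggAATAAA
The exonic parts of the RMER19B copies in Gm26862 (621 bases) and 2610037D02Rik (728 bases) were 63.9% identical over 621 bases, against 52.5% for the RMER5 copy aligned to the same Gm26862 stretch over 419 bases. The short RMER19B piece in Platr14 (153 bases) was 52.9% identical to the copy in 2610037D02Rik, close to the 52.3% that it shared with RMER5. The RMER5 stretch held TATAAA and AATAAA, the RMER19B stretch in Gm26862 held TATAAA, and the other two held neither.

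RMER copies were mostly short remnants outside genes. Their median length was 269 bases, against 163 for all repeats of the table, and 31.8% (40448 loci) overlapped a GENCODE gene, against 44.8% of all repeats, 34.6% of the loci with names starting with RLTR and 37.0% of those starting with ORR1. Of the 38911 copies within genes of 1 orientation, 37.0% lay on the strand of the gene, against 41.6% of all repeats. The reads were distributed the other way. Of the 723992 reads in RMER loci, which were 2.61% of all reads, 84.9% fell in copies inside genes, and 29.1% fell in the 2837 copies (2.23%) that touch an exon. Over all repeats both read shares were larger, with 91.0% inside genes and 38.0% in loci that touch an exon. They were 83.4% and 38.7% for the RLTR loci and 87.2% and 21.6% for the ORR1 loci. Reads were found in 52363 copies (41.2%), and 12267 averaged 1 read per library or more. In an unstranded library a read within a gene can come from the repeat's own transcript or from the gene's RNA, and these cannot be told apart.

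Reads were spread unevenly over the names. Names ending in -int stand for the internal part of an element rather than its LTR. RMER15 had the most (117868 reads over 18077 copies), followed by RMER6A, RMER19B, RMER5 and RMER4B. Per kilobase of annotated copies, RMER15 had 1.16 CPM (counts scaled to the effective library size) and RMER6A 1.30, against a median of 0.554 over the 54 names, while RMER21A had 3.28 and RMER17D2 the lowest value, 0.179. The highest value, 21.9, was that of RMER3D4, which had only 2 copies and 72 reads. In some names 1 copy held most of the reads. The 5 copies with the most reads lay in exons of protein-coding genes, and 2 of them, neighbours in an untranslated region (UTR) of Zwint (chr10:72673940-72674338 for RMER6D and chr10:72674362-72674749 for RMER6C), held 69.0% of the reads of RMER6D and 52.4% of those of RMER6C. Zwint encodes a kinetochore protein of dividing cells. The RMER6D copy was at 596, 855 and 718 CPM in the wild-type libraries and at 823, 747, 885 and 866 in the mutants, and the groups overlapped (log2 fold change 0.20 ± 0.13 SE, edgeR adjusted p = 0.98). Zwint itself was at 269.8 ± 26.3 FPKM (SD, n = 3) in the wild type and 293.9 ± 11.02 (SD, n = 4) in the mutants. The RMER21A copy in Tyms, the thymidylate synthase gene (chr5:30068368-30068714), held 52.7% of the reads of its name, at 272, 370 and 374 CPM in the wild type and 416, 388, 443 and 443 in the mutants. Each mutant was above each wild-type library there, but the difference did not pass the test (log2 fold change 0.32 ± 0.14 SE, edgeR adjusted p = 0.88). The RMER6A copy in Taf1d (chr9:15313119-15313608) and the RMER4B copy in Mrpl50, a mitochondrial ribosomal protein gene (chr4:49512846-49513326), had log2 fold changes of −0.16 ± 0.14 and 0.08 ± 0.14 (SE), with groups that overlapped and adjusted p of 0.98 for both (edgeR).

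A smaller number of copies lay at gene starts. Of the RefSeq promoter windows (250 bases before to 50 after the start, GRCm38.p6), 451 of 32851 overlapped an RMER copy, at 420 genes, and 52.6% of the 447 pairs of copy and gene shared a strand. These 445 copies held 2341 reads, 0.323% of the RMER reads. TATAAA on the strand of the gene occurred in 16.4% of these windows and in 18.7% of the 230 windows with at least 150 bases of 1 RMER copy, against 8.32% of all windows. AATAAA occurred in 15.3% against 11.3%, and TGGGGGG on either strand in 8.43% against 8.47%. The RMER windows were also poorer in G and C (46.6% against 53.8%). The copy with the most reads in such a window was an RMER17B2 upstream of Ren1, the renin gene. Its last 175 bases before Ren1, in capitals, and the 75 bases from there to the start read as follows on the strand of the gene.
Ren1 upstream, chr1:133350424-133350673 (plus strand): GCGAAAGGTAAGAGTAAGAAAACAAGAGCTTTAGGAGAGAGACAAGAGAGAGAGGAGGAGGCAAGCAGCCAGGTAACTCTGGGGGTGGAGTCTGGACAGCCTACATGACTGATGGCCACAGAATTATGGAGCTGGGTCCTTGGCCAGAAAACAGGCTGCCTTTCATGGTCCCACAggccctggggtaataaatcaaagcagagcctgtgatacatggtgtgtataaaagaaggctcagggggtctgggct
The RMER17B2 copy (chr1:133350197-133350598) was at 7.92, 9.30 and 15.2 CPM in the wild type and 13.7, 8.63, 21.2 and 20.8 in the mutants, and the groups overlapped (log2 fold change 0.57, unadjusted p = 0.0088, edgeR adjusted p = 0.76). Ren1 was at 149.9, 206.3 and 167.6 FPKM in the wild type and at 174.1, 168.3, 230.7 and 253.9 FPKM in the mutants (log2 fold change 0.23 ± 0.17 SE, limma adjusted p = 0.51). Of the 445 copies at gene starts, 59 were tested and 0 passed an adjusted p of 0.1 with edgeR (2 had an unadjusted p under 0.05). In the RefSeq miRNA table, 7 of 1005 hairpins overlapped an RMER copy, with 0 to 33 reads each over the 7 libraries.

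As a share of all repeat reads, RMER reads summed over all copies did not differ between the groups by more than their spread. RMER loci took 2.61% ± 0.114 of all repeat reads in the wild type (SD, n = 3) and 2.62% ± 0.0924 in the mutants (SD, n = 4). In CPM the mutant mean was higher by more than either SD, at 28867 ± 833 against 27693 ± 1088 in the wild type. The libraries overlapped, from 27793 to 29580 in the mutants and from 26886 to 28930 in the wild type. Neither measure was tested. Of 51 names tested, 0 passed an adjusted p of 0.1 (edgeR, Benjamini-Hochberg over all 831 names, of which 0.12% passed). At an unadjusted p under 0.05 there were 3, all higher in the mutants, against 16.1% of all names. DESeq2 also called 0 RMER names, against 4.45% of all names, and gave 12 of the 51 no adjusted p. The median log2 fold change was 0.07 over the RMER names and 0.08 over all names, with a range of −0.11 to 0.32. The 3 names were RMER12, RMER12C and RMER6C. RMER12 was at 747, 761 and 755 CPM in the wild type and at 826, 788, 833 and 807 in the mutants, with no overlap (log2 fold change 0.11, unadjusted p = 0.015, edgeR adjusted p = 0.21). RMER12C was at 512, 553 and 528 against 589, 558, 581 and 573, also without overlap (log2 fold change 0.12, edgeR adjusted p = 0.23). RMER6C, which followed the copy in Zwint, was at 1165, 1419 and 1259 against 1401, 1344, 1479 and 1487 and overlapped (log2 fold change 0.16 ± 0.065 SE, edgeR adjusted p = 0.28). In 3 of the 51 names tested (RMER12, RMER12C and RMER19A) each mutant library was above each wild-type library, and in 0 names below it. Over all names tested, 14.6% had each mutant above and 0.12% each mutant below. Among the names with the most reads, RMER15 was at 4459 ± 265 CPM in the wild type and 4753 ± 86.2 in the mutants, and RMER19B at 2084 ± 77.5 and 2093 ± 43.0 (SD, n = 3 and n = 4).

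Copies inside and outside genes gave different counts of names, and the difference between them was not itself tested. Summed over copies outside genes, 17 of 50 RMER names rose in the mutants and 0 fell, and among all names summed in that way 22.2% rose. Summed over copies inside genes, 0 of 50 passed with edgeR (2 with an unadjusted p under 0.05, both lower), against 0.0% of all names. The names that rose outside genes included 7 of the 10 names that start with RMER17. RMER17D2 had the largest log2 fold change among them, 0.96, followed by RMER6-int with 0.88, RMER17B2 0.77, RMER17A 0.76 and RMER17A-int 0.71. Next were RMER6C with 0.58, RMER17A2 0.57, RMER6D 0.57 and RMER17C2 0.54. Their edgeR adjusted p ran from 0.019 to 0.074 (RMER17A-int), and their values inside genes lay between −0.14 and 0.16. The median log2 fold change of RMER names outside genes, 0.26, was near that of all names, 0.27.

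**Figure D1:**
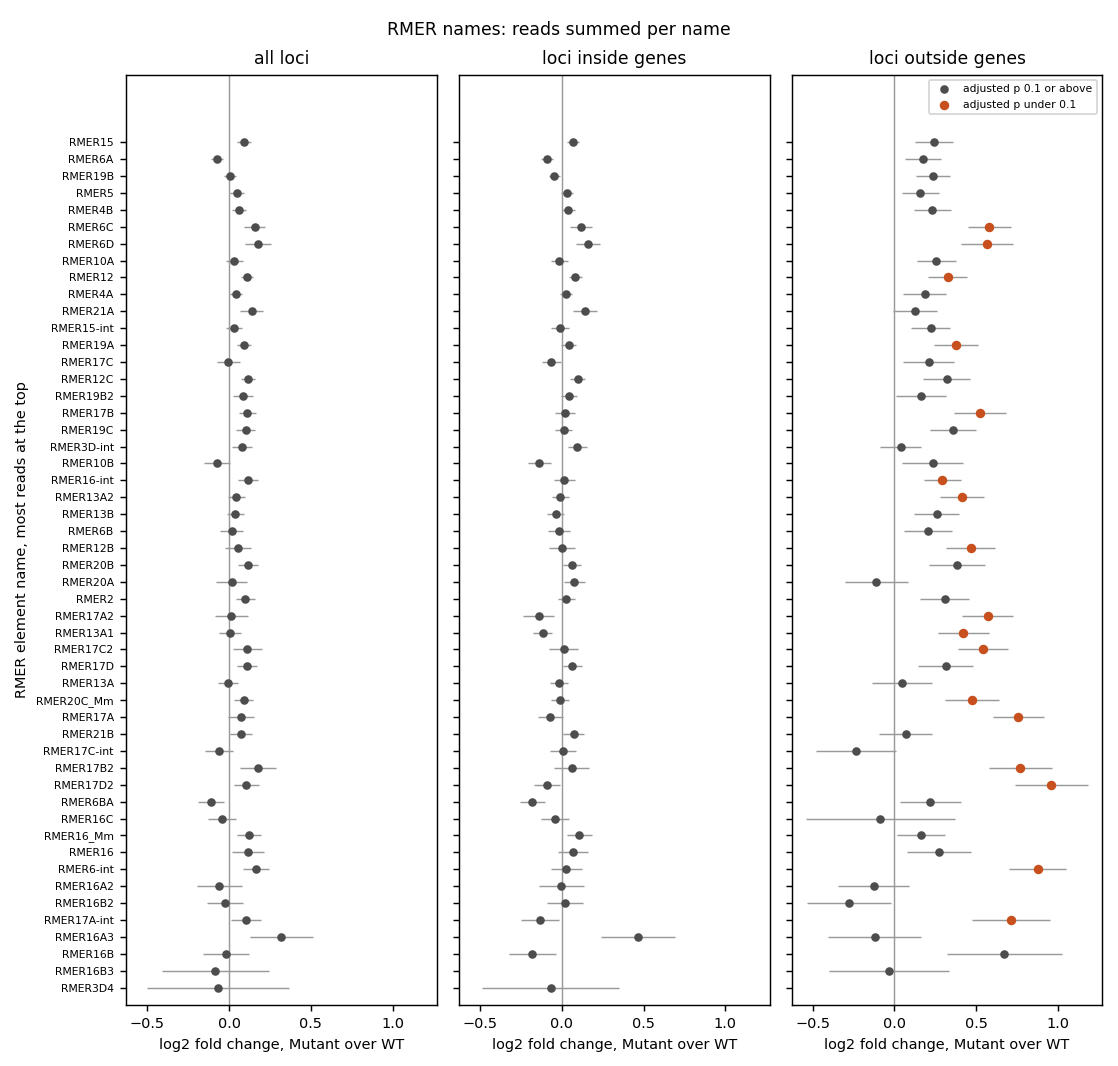
Log2 fold change (mutant over wild type) with its standard error for each RMER name with enough reads, from reads summed over all copies, copies inside genes and copies outside genes, with names ordered by reads. Values inside genes lie around 0, and 17 names outside genes, in orange, have an adjusted p under 0.1.

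The rise outside genes was in the sparsest copies. Copies averaging under 1 read per library summed to 1317, 1435 and 1444 CPM in the wild type and to 2188, 1674, 2210 and 2608 in the mutants. Each mutant library was above each wild-type library. With these copies alone, 38 of 47 RMER names rose (median log2 fold change 0.64), beside 70.6% of all names (median 0.59). Copies outside genes with a mean of at least 1 read summed to 2484 ± 319 CPM in the wild type and 2482 ± 116 in the mutants (SD, n = 3 and n = 4), 0 of 46 names passed the test with edgeR (2 had an unadjusted p under 0.05), and the median was 0.00. Sparse copies inside genes showed a smaller difference, with 2 of 44 RMER names higher (9.25% of all names) and a median of 0.21. Sparse copies of all repeats outside genes together took 27565 ± 1688 CPM in the wild type and 41892 ± 7101 in the mutants. When the library sizes were set on the name sums outside genes, 0 of 50 RMER names passed with edgeR (11 had an unadjusted p under 0.05) and their median became −0.02. The cause of the higher level of scattered reads was not tested. Leaving out 1 library gave 4 RMER names without mutant replicate 3 or 4 (4.98% and 3.87% of all names) to 24 without mutant replicate 2 (36.5% of all names).

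**Figure D2:**
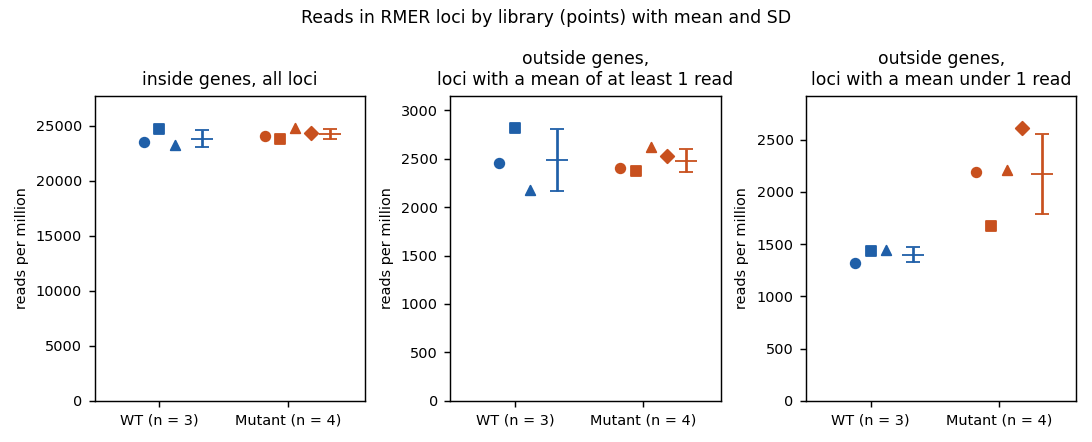
CPM in RMER loci of each library (points) with group mean and SD (bars), for copies inside genes, copies outside genes averaging 1 read or more, and sparser copies outside genes. In the third panel each mutant library, from 1674 to 2608, lies above each wild-type library, from 1317 to 1444.

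At single loci, 25 of the 12267 RMER copies tested passed an adjusted p of 0.1 (edgeR quasi-likelihood test over all 464695 repeat loci tested), 6 higher and 19 lower in the mutants. This was 0.204% of the copies, against 0.0846% of all loci tested (0.0217% higher and 0.0628% lower), and 5 of the 19 that fell came from 1 stretch of chromosome 7. Of the loci with names starting with RLTR 0.297% passed, a larger share than among the RMER copies, and of those starting with ORR1 0.0481%. At an unadjusted p under 0.05 there were 699 copies, 5.70%, against 4.79% of all loci, 5.93% of the RLTR loci and 4.85% of the ORR1 loci. In 22 of the 25 the groups overlapped, and the copies with each mutant above (3.01%) or below (3.24%) each wild-type library were near the share over all loci, 2.97% and 3.03%. Of the 25 copies, 10 lay between genes, 6 in introns and 9 in exons. The falls followed the wild-type libraries unevenly. Wild-type replicate 2 was the highest library in 16 of 19, and the library labelled wild-type replicate 3 was below at least 1 mutant in 18 of 19. Without wild-type replicate 2, 17 of the 19 falls lost their call and 5 RMER copies were called in all, against 0.0294% of all loci. Without both wild-type replicates 2 and 3, 1 was called (0.00837% of all loci). Without the library labelled wild-type replicate 3, all 19 kept it and 37 RMER copies were called, 34 of them lower, against 0.141% of all loci. DESeq2 called 0 RMER loci (160 had an unadjusted p under 0.05), against 0.00323% of all loci, and gave no adjusted p for 10025 of the 12267, which could therefore not be called.

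**Figure D3:**
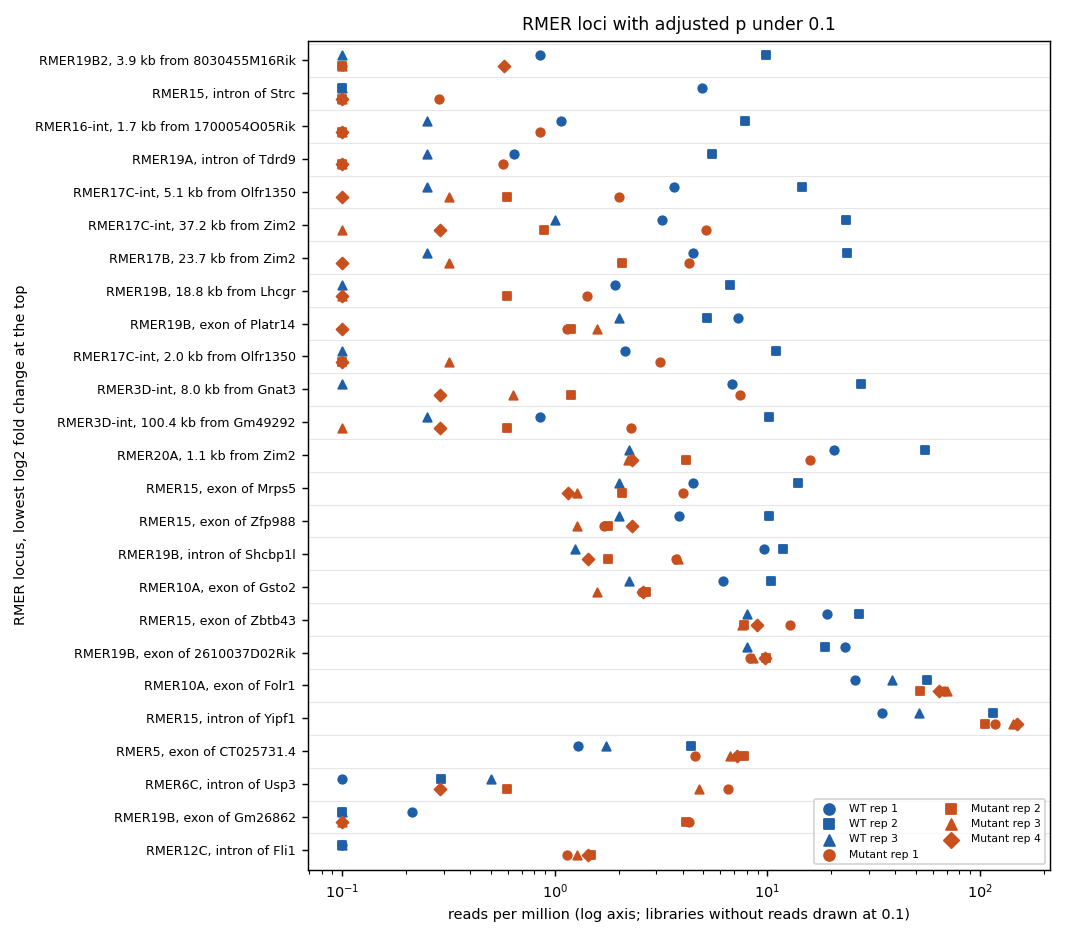
CPM (log axis) of each library at the 25 RMER copies with an adjusted p under 0.1, labelled by element name and the gene they lie in or nearest to, ordered by log2 fold change. In most of the copies that fell, wild-type replicate 2 (blue square) stands highest and the library labelled wild-type replicate 3 (blue triangle) lies among the mutants (orange).

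The largest cluster lay between Olfr1350, an olfactory receptor gene, and Zim2, an imprinted zinc finger gene next to Peg3. Within 77.2 kb (chr7:6573445-6650650, a window set after the values were seen) there were 5 RMER copies that fell: 3 of RMER17C-int, 1 RMER17B and 1 RMER20A, all on the plus strand. RMER20A (chr7:6650250-6650650), 1098 bases from Zim2, had the smallest adjusted p of all RMER copies. It was named after its values were seen, as it was outside the rule for named loci. It was at 20.5, 55.2 and 2.25 CPM in the wild type and at 16.0, 4.17, 2.22 and 2.31 in the mutants (log2 fold change −2.02 ± 0.22 SE, edgeR adjusted p = 2.29e-15). The wild-type mean there was 26.0 CPM with an SD of 26.9 (n = 3). The SE and p of this and other loci rest on a spread shared by all loci of a given level, not on that SD. Wild-type replicates 1 and 2 were above each mutant, and the library labelled wild-type replicate 3 was within the mutant range. RMER17B (chr7:6627123-6628069) was at 4.49, 23.8 and 0.2495 against 4.28, 2.08, 0.317 and 0 CPM (log2 fold change −2.39 ± 0.34 SE, edgeR adjusted p = 1.27e-08). The RMER17C-int copies at chr7:6576540-6577277, chr7:6614116-6614507 and chr7:6573445-6574087 had log2 fold changes of −2.92, −2.41 and −2.18. Over the window as a whole, wild-type replicate 2 was again the highest library and wild-type replicate 1 the next. Its 12 RMER copies together had 169, 494 and 16 reads in the wild type and 116, 30, 11 and 10 in the mutants, while the other repeats had 1298, 3513 and 59 against 808, 211, 108 and 81. Of the 68 repeat loci tested there, 67 had a negative log2 fold change (median −2.18), 35 passed the test and 58 were on the plus strand. None of these 68 loci overlapped a GENCODE gene. The 33 repeat loci tested in Zim1, the next gene on, had a median of −0.01 and 0 calls. Without wild-type replicate 2 each of the 5 RMER copies lost its call, with log2 fold changes that stayed negative.

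**Figure D4:**
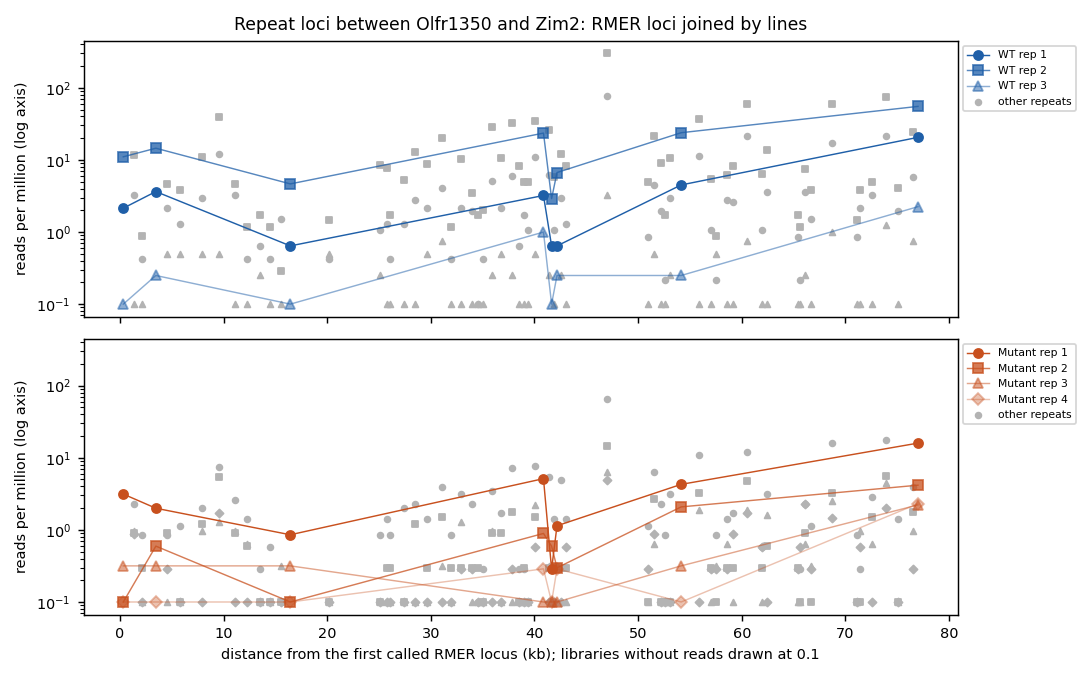
CPM (log axis) of the tested repeat loci by distance in kb from the first RMER copy that fell in the window between Olfr1350 and Zim2, in wild-type (top) and mutant libraries (bottom), with RMER copies joined by lines and other repeats in grey. Wild-type replicate 2 is highest along the window, and the library labelled wild-type replicate 3 lies as low as mutant replicates 3 and 4.

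Other copies between genes fell in the same way. An RMER19B2 (chr8:110061044-110061690), 3868 bases from 8030455M16Rik, had 38 wild-type reads, 34 of them in replicate 2, and 2 mutant reads, a ratio of 21.1 (95% counting interval 5.46 to 180.9). An RMER16-int (chr10:35473031-35477145), 1682 bases from 1700054O05Rik, had 33 against 3 reads, a ratio of 12.2 (3.84 to 62.4), and 27 of the 33 were in replicate 2. The RMER19B at chr17:88810767-88811609, 18777 bases from Lhcgr, the luteinizing hormone receptor gene of Leydig cells, was at 1.93, 6.68 and 0 against 1.43, 0.595, 0 and 0 CPM, while Lhcgr was at 7.52 ± 1.53 FPKM in the wild type and 9.43 ± 0.622 in the mutants (SD, n = 3 and n = 4). Outside the rule for named loci, and named after their values were seen, were an RMER3D-int 8016 bases from Gnat3 (chr5:18027850-18029988), at 6.85, 27.6 and 0 against 7.41, 1.19, 0.634 and 0.288 CPM, and another on chromosome 14 (chr14:102335230-102336634), 100389 bases from Gm49292, at 0.856, 10.2 and 0.2495 against 2.28, 0.595, 0 and 0.288. The chromosome 14 copy turned to a log2 fold change of 0.45 without wild-type replicate 2. In the other copies of this paragraph the sign held without that library and the call did not.

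Within genes, 9 of the copies that fell lay in introns or exons. An RMER19A (chr12:111995486-111996037) lay in an intron of Tdrd9, a helicase of the PIWI pathway, with 23 wild-type and 2 mutant reads (ratio 12.8, 95% counting interval 3.16 to 112.0). Of the 23 reads, 19 were in wild-type replicate 2. The call was lost without that library (log2 fold change −1.47, against −3.47 with it) and without mutant replicate 2, 3 or 4. Tdrd9 itself was at 4.11, 14.1 and 0.584 FPKM against 2.96, 1.32, 0.427 and 0.339. The RMER19B in Platr14 (sequence above), a non-coding RNA named for its link to pluripotency, was at 7.28, 5.23 and 1.996 CPM in the wild type and at 1.14, 1.19, 1.59 and 0 in the mutants. It was the 1 copy that fell with each mutant below each wild-type library (log2 fold change −2.30 ± 0.43 SE, edgeR adjusted p = 0.000444), and it kept its call without wild-type replicate 2 or 3 but lost it without replicate 1 and without replicates 2 and 3 together, and in 5 of 16 alternatives in all. An RMER15 in an intron of Strc, a gene of hair cells of the inner ear (chr2:121385373-121385895), had 23 reads in wild-type replicate 1, 0 in the other two wild-type libraries and 1 in the mutants. Strc was at 1.92 FPKM in that library and at 0.0131 to 0.0287 in the others.

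The other copies that fell within genes were outside the rule for named loci and are described after their values were seen. RMER15 in Zbtb43 (chr2:33462214-33462369), a zinc finger gene, was at 19.0, 27.0 and 7.98 against 12.8, 7.74, 7.61 and 8.94 CPM, and the gene at 18.5, 25.2 and 11.03 against 13.6, 12.5, 10.7 and 10.2 FPKM. RMER10A in Gsto2, a glutathione transferase gene (chr19:47869736-47870136), was at 6.21, 10.5 and 2.25 against 2.57, 2.68, 1.58 and 2.60 CPM, and the gene at 4.62, 5.55 and 1.98 against 2.01, 1.76, 1.19 and 1.36 FPKM. RMER19B in an intron of Shcbp1l (chr1:153441714-153442477) and RMER19B in 2610037D02Rik (chr15:96193108-96193938, sequence above) had log2 fold changes of −1.48 and −0.87. In each of these 4 genes, wild-type replicates 1 and 2 were the highest libraries for the repeat and for the gene. None of the 4 genes passed the test in all 7 libraries, and each did when wild-type replicate 3 was left out (limma adjusted p under 0.05, against 5.15% of all genes). The remaining copies lay in exons of Mrps5 and Zfp988. RMER15 in Mrps5, a mitochondrial ribosomal protein gene (chr2:127590324-127590444), was at 4.49, 13.9 and 1.996 CPM in the wild type and at 3.99, 2.08, 1.27 and 1.15 in the mutants, and the groups overlapped (log2 fold change −1.60 ± 0.34 SE, edgeR adjusted p = 0.0082). The call was lost without wild-type replicate 2 or mutant replicate 4, while Mrps5 was at 74.3 ± 8.12 FPKM in the wild type and 71.0 ± 5.28 in the mutants (SD, n = 3 and n = 4), a log2 fold change of −0.06.

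The 6 copies that rose were in introns or exons of 6 genes, with no overlap of groups in 2. An RMER15 remnant in an intron of Yipf1, a Golgi membrane protein gene (chr4:107356713-107356769), had 162, 397 and 207 reads in the wild type and 414, 356, 451 and 517 in the mutants, or 34.7, 115.4 and 51.7 against 118.1, 106.0, 142.9 and 149.1 CPM (log2 fold change 0.95 ± 0.16 SE, edgeR adjusted p = 7.82e-06). Wild-type replicate 2 was above mutant replicate 2. The 6 other repeats within 1000 bases held 9 reads in all 7 libraries together. Sequence between the repeats was not counted, so how far the reads extend beyond this copy cannot be told. Yipf1 was at 40.1 ± 5.85 FPKM against 49.3 ± 4.67 (SD, n = 3 and n = 4). The call was lost in 4 of 16 alternatives, among them leaving out wild-type replicate 1 (log2 fold change 0.64). The RMER5 in CT025731.4 (sequence above), where the annotation also holds CT025731.1, was at 1.28, 4.36 and 1.75 against 4.56, 7.74, 6.66 and 7.21 CPM, each mutant above each wild-type library (log2 fold change 1.46 ± 0.34 SE, edgeR adjusted p = 0.028). Its call was lost in 8 of 16 alternatives, among them leaving out wild-type replicate 1 or 3 or mutant replicate 2 or 4. An RMER12C in an intron of Fli1 (chr9:32467848-32468293), an ETS factor gene of endothelial and blood cells, had no reads in the wild type and 18 in the mutants, 4 to 5 in each, at least 5.39-fold higher against a floor of 3 reads over the group, while Fli1 was at 8.07 ± 0.904 and 8.31 ± 0.470 FPKM (SD, n = 3 and n = 4). This call was lost in 9 of 15 alternatives, among them leaving out any 1 of the wild-type libraries or mutant replicate 2 or 4.

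The other rises rested on some of the mutants or on small differences. RMER6C in an intron of Usp3, a ubiquitin protease gene (chr9:66532665-66533054), had 3 wild-type and 41 mutant reads, a ratio of 12.3 (95% counting interval 3.92 to 62.0), with 38 of the 41 in mutant replicates 1 and 3. RMER19B in Gm26862 (sequence above) had 1 wild-type read and 29 mutant reads, all in mutant replicates 1 and 2. Both lost their call without mutant replicate 1 and without wild-type replicate 2, in 4 of 15 and 5 of 15 alternatives in all. RMER10A in an exon of Folr1, the folate receptor gene (chr7:101866932-101867293), was at 25.9, 56.7 and 38.4 against 67.9, 52.4, 70.0 and 64.0 CPM (log2 fold change 0.67 ± 0.17 SE, edgeR adjusted p = 0.085), and lost its call in 11 of 16 alternatives. Folr1 was at 25.0, 36.8 and 30.8 FPKM in the wild type and at 45.0, 40.0, 41.5 and 43.2 in the mutants, each mutant above each wild-type library (log2 fold change 0.47 ± 0.12 SE, limma adjusted p = 0.17).

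The genes that silence LTRs were compared in the same libraries. Of a list of 32, part of which the study had itself chosen on these samples, 31 were tested and 0 passed an adjusted p of 0.05 with limma (0.00715% of all genes passed), with 30 lower and 1 higher in the mutant mean and a median log2 difference of −0.62, against 0.01 over all genes. At an unadjusted p under 0.05, 14 were lower and 1 was higher, against 17.0% of all genes. Without the library labelled wild-type replicate 3, 13 of 31 fell, against 3.99% of all genes. In the PIWI pathway, Ddx4, an RNA helicase of germ cells, was at 101.7, 94.7 and 53.1 FPKM in the wild type and at 39.8, 33.6, 42.2 and 34.9 in the mutants, without overlap (log2 fold change −1.08 ± 0.21 SE, limma adjusted p = 0.14). Mael was at 67.1, 128.3 and 18.8 against 30.6, 18.2, 15.7 and 12.9, Piwil2 at 22.5, 25.8 and 7.02 against 10.9, 7.59, 7.43 and 5.59, and Piwil4 at 2.62, 11.2 and 0.268 against 1.64, 0.369, 0.312 and 0.277. Tdrkh (log2 fold change −0.84) and Pld6 (−0.62), which act in the processing of small RNAs, had each mutant below each wild-type library. Dnmt3l, the methyltransferase cofactor, was at 0.883, 7.35 and 0.0754 against 1.95, 0.424, 0.0813 and 0.0826 FPKM. Of the 32 genes, 14 had the 3 features of the chromosome 7 window, with wild-type replicate 2 the highest library, replicate 3 the lowest wild type and mutant replicate 1 the highest mutant, as had 3.92% of all genes tested. Ddx4, Tdrkh and Pld6 were not among them. The features were taken from the window after its values were seen, so these shares are a description and not a test. The part of germ cell content in the window or in the list was not tested.

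Among genes of chromatin silencing that all cells use, the differences of those named here were smaller than those of the PIWI pathway genes. Trim28 was at 280.2, 176.0 and 211.9 FPKM against 193.5, 202.6, 218.5 and 198.2, with overlap. Hells, a chromatin remodeller of DNA methylation, was at 100.7 ± 12.5 FPKM in the wild type and 75.9 ± 6.17 in the mutants (SD, n = 3 and n = 4), with each mutant below each wild-type library (log2 fold change −0.40 ± 0.099 SE, limma adjusted p = 0.17). Setdb1 (−0.23), Suv39h2 (−0.26) and Ehmt2 (−0.31), which methylate histone H3 lysine 9, also had each mutant below each wild-type library. Mphosph8 had a log2 fold change of −0.47. Uhrf1, which maintains DNA methylation, was the gene with the higher mutant mean, at 42.9 ± 3.23 against 50.1 ± 4.13 FPKM (log2 fold change 0.22 ± 0.083 SE, limma adjusted p = 0.24). For markers of other cell types in the testis, median log2 differences were 0.13 for 9 Sertoli cell markers, 0.47 for 6 fetal Leydig cell markers (5 with an unadjusted p under 0.05), 0.31 for 5 macrophage markers and −0.04 for 4 endothelial markers, and 0 of these lists' genes passed an adjusted p of 0.05. Skeletal muscle (median 0.84), mast cell (1.29), red blood cell (0.02) and mesonephric duct (0.14) markers also gave 0 calls with limma.

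**Figure D5:**
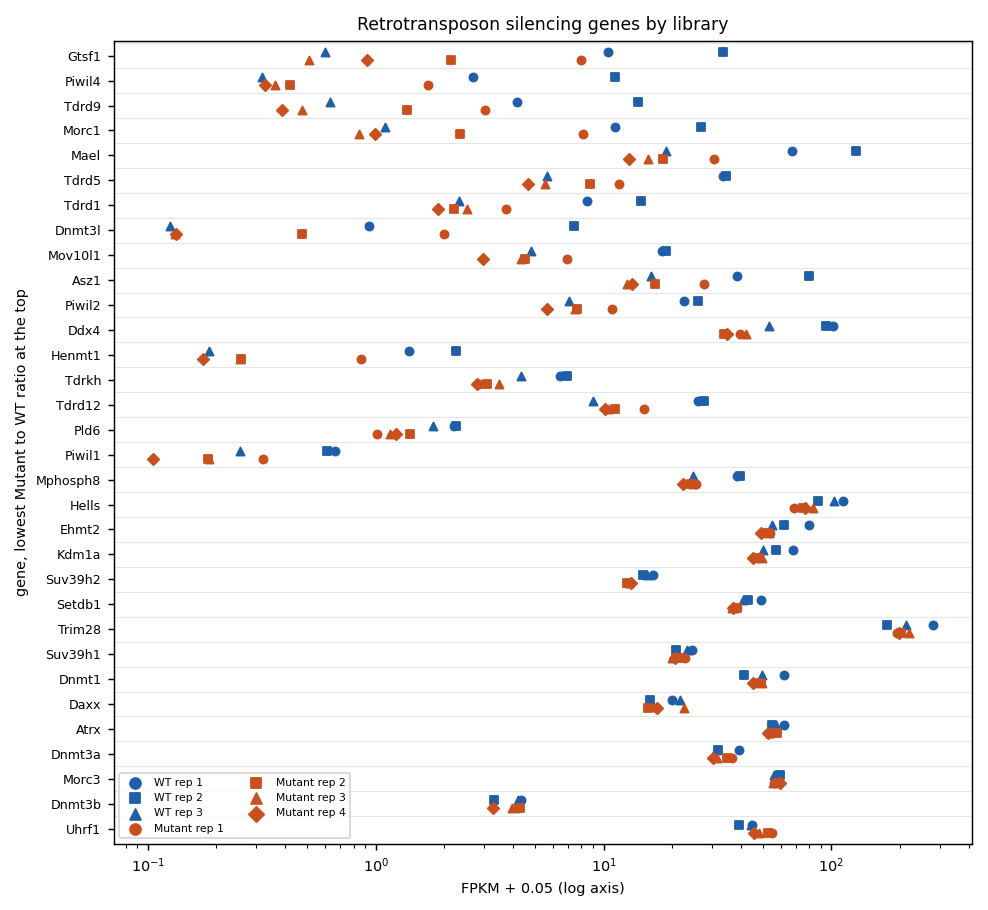
FPKM (log axis, 0.05 added for drawing) of 32 retrotransposon silencing genes in each library, ordered by the ratio of group means. Genes of the PIWI pathway at the top are highest in wild-type replicates 1 and 2 and low in wild-type replicate 3, and chromatin genes at the bottom differ less.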

How the data were processed

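RNA-Seq libraries of 7 E14.5 embryos were used, grouped by the sample labels. The authors removed reads of low base quality, aligned the rest to mm10 with TopHat2 2.0.12, and counted unique hits in each RepeatMasker locus with HTSeq. The deposited counts are not normalized, and reads of near-identical copies are missing from them. The deposited FPKM per RefSeq gene were made by the authors with Cuffnorm, library scaling included, and depth cannot be read from them. All per-sample columns were used (0 left out). Each library is a separate embryo.

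For loci averaging 1 read or more, and names averaging 10 reads or more, edgeR 4.0.16 in R 4.3.3 gave the quasi-likelihood test (TMM factors of the tested loci, two-sided, Benjamini-Hochberg threshold 0.1). CPM values are per effective library size. The SE of an edgeR fold change was derived from the test, as the log2 fold change over the square root of its F value. In the locus fit the prior degrees of freedom were infinite, so that all loci of a given level shared 1 spread. For genes averaging 0.5 FPKM or more, limma 3.58.1 was fitted to log2(FPKM + 0.5) (trend, two-sided, threshold 0.05), and such fold changes understate those of low genes. DESeq2 1.42.0 was an alternative, beside other library scalings, filters, pseudocounts, a replicate block and leaving out libraries. With 3 against 4 libraries an exact permutation test reaches 0.0286 at the lowest. Counting intervals (95%, exact) and floors (3 reads over a group) cover counting error only.

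Locus places came from GENCODE M21 (bedtools 2.31.1), and promoter windows and miRNAs from RefSeq. Motifs were searched in promoter windows and transcript stretches. Of 200 simulated loci averaging 10 reads or more and changed by a log2 fold of 2, 108 were called among 464695, beside 5 unchanged loci. Of 200 names changed by 0.5 among 831, 175 were called, beside 13 unchanged names, and of 200 genes changed by 1.5 among 13988, all 200 were called, beside 14 unchanged genes. All simulated loci had a dispersion of 0.1, all names 0.01, and all genes the same SD, with no outlying library. Such recovery need not hold where libraries of a group differ more. Of the 12267 RMER loci tested, 1836 averaged 10 reads or more. The members and lists were chosen with earlier results of these data known. The rule named each RMER name past the threshold and the 5 with the most reads, up to 10 copies that rose and 10 that fell by size of log2 fold change, the 5 copies with the most reads, the genes around them, Glis3 and the silencing list. Other items are named where a count turned on them.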

Additional observations from a re-analysis of the deposited data

Results flagged for a closer look

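In 75 sets of 4 mutant values (named loci, names and genes), 12 had a highest or lowest library whose gap to the next, as a share of the whole range, was above Dixon's 95% limit for 4 samples. Chance alone gives about 1 in 20 for groups not chosen by their values, a rate that does not apply here, since many of the sets were loci chosen for their calls. Where 1 library holds the few mutant reads and the others have none, the share is 1.0 by construction. In 4 loci the share was 1.0, since 1 mutant library held all mutant reads: RMER19B2 on chromosome 8 (0.577 CPM in replicate 4), RMER15 in Strc (0.285 in replicate 1), RMER16-int on chromosome 10 (0.855 in replicate 1) and RMER19A in Tdrd9 (0.570 in replicate 1). Mutant replicate 1 was highest in the RMER17C-int copy at chr7:6573445-6574087 (3.14 against 0.317 CPM, share 0.899), in RMER3D-int on chromosome 5 (7.41 against 1.19, share 0.873) and in RMER20A near Zim2 (16.0 against 4.17, share 0.858). It was also highest in FPKM of Piwil4 (1.64 against 0.369, share 0.933) and Shcbp1l (2.09 against 0.70, share 0.927). Mutant replicate 3 was lowest for RMER10A in Gsto2 (1.58 against 2.57 CPM, share 0.897). Mutant replicate 2 was lowest for the summed RMER19B name (2029 against 2113 CPM, share 0.946) and for Mrpl50 (45.2 against 46.6 FPKM, share 0.942). What sets these libraries apart was not tested.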

How the results depend on the processing

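Of 25 RMER loci called, DESeq2 and a minimum mean of 10 reads (1836 loci, 151 with an unadjusted p under 0.05) each left 0, a robust prior 13, and leaving out wild-type replicates 2 and 3 together 1. Leaving out 1 library gave 5 to 37 loci. The robust prior called 251 of all 464695 loci. With the replicate number as a block, 11 RMER loci were called (217 of all 464695 loci) and 4 RMER names rose outside genes (31 of all 703 names). Same-numbered libraries did not deviate together (correlations over names 0.143, −0.155 and 0.239), so the numbers were not taken to pair them. Of names summed over all copies 0 were called, against 17 outside genes and 0 to 2 with 1 library left out (2 without wild-type replicate 2). Outside genes the 17 names became 8 at a threshold of 0.05, 38 for copies with a mean under 1 read, 0 for the other copies, 0 with scaling on the name sums, and 4 to 24 with 1 library left out. Of the host, Glis3 and silencing genes, 0 to 18 were called with 1 library left out (18 without the library labelled wild-type replicate 3). The difference in RMER share (mutant minus wild type) was 0.0101 percentage points, and −0.0412 to 0.0711 with 1 library left out. The robust prior, the pair of libraries left out and the settings outside genes other than the threshold were chosen after seeing the data. Signs turned in small or sparse log2 values. The RMER3D-int locus on chromosome 14 ran from −3.38 to 0.45 with 1 library left out, the RMER4B locus from −0.0151 to 0.15, Dnmt3l from −1.82 to 0.0684, Fli1 from −0.0454 to 0.0984, Mrpl50 from −0.0356 to 0.0384, Trim28 from −0.26 to 0.0720, and the names RMER19B from −0.0370 to 0.0335 and RMER5 from −0.00521 to 0.0691. The RMER6A name was at 0.17 outside genes. The RMER19B name turned to −0.0284 by library size, −0.00145 with DESeq2, −0.00141 with its size factors, −0.0662 with scaling on the name sums, −0.0418 over copies averaging 1 read or more and −0.0467 inside genes. With scaling on the name sums RMER5 turned to −0.0244 and RMER4B to −0.0115. The causes were not tested.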
